A study of Mus musculus with 6 samples.

Results

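Serotonin in the gut wall is made, stored, taken back up and broken down by the products of a small set of genes, and 9 of them are described here in the mouse duodenum: Tph1 and Ddc for synthesis, Slc18a1 and Slc18a2 for loading into vesicles, Slc6a4 for reuptake, Maoa and Maob for breakdown, and the transcription factors Lmx1a and Fev. They were picked by gene symbol, with earlier results of these data known, and all 9 were found among the 23699 gene models. RNA of the first 2 cm of the duodenum had been sequenced from 6-week-old mice of mixed background, in 3 control and 3 mutant libraries. Controls were Nkx2.2flox/+, with 1 floxed and 1 intact allele and no Cre named in their labels. Mutants were Nkx2.2flox/flox;Villin-Cre/+, in which the Villin promoter drives Cre recombinase in the intestinal epithelium, and mutant 3 also carried the Rosa26Tomato/+ reporter. Every mouse thus carried at least 1 floxed allele, no group had Cre with an intact allele, and the tissue was the whole duodenal wall, of which the epithelium is one part.

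Most serotonin of the body is made in enterochromaffin cells, the serotonin-storing endocrine cells of the gut epithelium. Tryptophan hydroxylase 1 (Tph1) carries out the rate-limiting hydroxylation of tryptophan, and aromatic L-amino acid decarboxylase (Ddc) then yields serotonin. The vesicular monoamine transporters VMAT1 (Slc18a1) and VMAT2 (Slc18a2) load it into secretory granules. After release it is cleared by the serotonin transporter SERT (Slc6a4), which in the gut is made by absorptive epithelial cells, and oxidised by the monoamine oxidases A and B (Maoa and Maob). Lmx1a, a LIM homeodomain factor, and Fev, an ETS factor also called Pet1, are known from serotonergic neurons and enterochromaffin cells. Nkx2-2, the targeted gene, encodes a homeodomain factor of endocrine progenitors.

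The sequences shown first are promoter windows of the genes whose levels lay lower in the mutants, each from 250 bases before to 50 bases after an annotated start site, taken from RefSeq (GRCm38.p6) and printed 5′ to 3′ on the gene's own strand. Capitals mark the 7 letters TNAAGTG, the core of sites bound by Nkx2 homeodomain proteins, and the 6 letters TAATTA, a core of LIM homeodomain sites, each searched on both strands. The Tph1 window, chr7:46667328-46667627 on the minus strand, holds the annotated start nearest to the isoform from which all its reads came, which in the deposited files starts 29 bases further downstream.

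Tph1: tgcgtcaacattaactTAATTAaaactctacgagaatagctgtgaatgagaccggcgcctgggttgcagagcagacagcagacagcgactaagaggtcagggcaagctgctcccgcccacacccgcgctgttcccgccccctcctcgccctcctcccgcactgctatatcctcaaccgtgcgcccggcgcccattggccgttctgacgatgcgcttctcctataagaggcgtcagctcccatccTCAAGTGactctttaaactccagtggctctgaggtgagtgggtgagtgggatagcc

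The match TCAAGTG began 6 bases upstream of the annotated start in the Tph1 window, and TAATTA began 234 bases upstream of it. The window of Lmx1a, chr1:167689308-167689607 on the plus strand, held TCAAGTG from 12 bases upstream. The window of Fev, chr1:74885359-74885658 on the minus strand, held CACTTTA, which is TNAAGTG read on the other strand, from 74 bases upstream, overlapping a TAATTA from 69 bases upstream.

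Lmx1a: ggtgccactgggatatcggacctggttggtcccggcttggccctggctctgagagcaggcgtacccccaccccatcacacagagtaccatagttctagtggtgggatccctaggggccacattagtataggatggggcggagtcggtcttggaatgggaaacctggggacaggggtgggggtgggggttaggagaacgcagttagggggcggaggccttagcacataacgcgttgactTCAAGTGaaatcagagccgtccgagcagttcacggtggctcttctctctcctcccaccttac

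Fev: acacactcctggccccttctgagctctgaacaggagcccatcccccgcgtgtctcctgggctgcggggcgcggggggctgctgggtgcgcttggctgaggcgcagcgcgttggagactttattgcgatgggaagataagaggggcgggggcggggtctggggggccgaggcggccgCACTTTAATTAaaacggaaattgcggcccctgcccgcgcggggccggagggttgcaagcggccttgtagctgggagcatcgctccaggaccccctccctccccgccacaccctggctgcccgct

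Ddc has a pair of annotated starts that lie 7736 bases apart, and neither window held any of the motifs searched. The upstream window was chr11:11898095-11898394 and the downstream window chr11:11890359-11890658, both on the minus strand.

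Ddc upstream start: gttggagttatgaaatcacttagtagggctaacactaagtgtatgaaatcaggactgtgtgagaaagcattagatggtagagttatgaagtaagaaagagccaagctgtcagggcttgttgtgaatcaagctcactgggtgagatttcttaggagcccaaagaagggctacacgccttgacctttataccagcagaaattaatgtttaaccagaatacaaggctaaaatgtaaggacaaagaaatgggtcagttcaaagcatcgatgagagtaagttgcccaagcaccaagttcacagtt

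Ddc downstream start: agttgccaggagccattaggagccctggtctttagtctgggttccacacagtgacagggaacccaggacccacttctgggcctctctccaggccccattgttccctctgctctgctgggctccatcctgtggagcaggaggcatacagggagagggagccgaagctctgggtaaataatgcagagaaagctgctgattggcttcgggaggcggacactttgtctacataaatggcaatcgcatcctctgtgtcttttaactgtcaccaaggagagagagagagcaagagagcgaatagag

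Of the 9 genes, 7 had windows (9 windows in all), and Slc18a1 and Maob had none in the table. TNAAGTG stood in 4 of the 9 windows, those of Tph1 (downstream start), Lmx1a, Fev and Maoa, against 11.5% of 32851 windows of that length over all genes. TAATTA stood in 2 windows against 5.29%. The E-box CAGCTG stood in the windows of Slc6a4 and Slc18a2 against 16.3%, and the E-box CAGATG stood in 0 windows against 17.2%. These are matches of letters only, and Maoa, which holds one, had overlapping levels in controls and mutants.

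Expression is given as FPKM (fragments per kilobase of transcript, scaled to the mapped fragments of the library), a unit that corrects for transcript length and lets genes be compared within a library. Depth was 21.0 to 26.3 M fragments per library. Changes are mutant minus control of log2(FPKM + 0.5), fitted with limma across 13596 genes of at least 0.5 FPKM in at least 3 libraries. They are given with their standard error and a Benjamini-Hochberg adjusted p over all those genes, and the added 0.5 understates the change of low genes. Group levels are means ± SD with n = 3. The labels do not say that each library is a separate animal, so a p-value here reflects only how these libraries vary, which may be technical.

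Several libraries stood apart from the labelled groups. Xist was at 19.7 and 22.5 FPKM in mutants 2 and 3 and at most 0.0894 FPKM elsewhere, while the Y-linked Ddx3y was at 11.4 to 13.8 FPKM in the controls and mutant 1 and at most 0.0474 FPKM in mutants 2 and 3. Sex as shown by these transcripts therefore differed between the groups in 2 of 3 mutants. Both libraries numbered 3 had high Reg3b, an antimicrobial lectin of inflamed epithelium, at 42934 and 47743 FPKM against 207 to 5823 FPKM in the others. Control 2 had the stomach transcript Gkn2 at 207 FPKM against at most 1.28 FPKM in the other libraries. Nkx2-2 itself measured 1.13, 1.32 and 0.779 FPKM across controls 1 to 3, against 1.10, 0.736 and 0.221 FPKM across mutants 1 to 3, with overlap. The floxed stretch is not given in the sources used here, so this total does not check the deletion.

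Tph1 had the largest fitted change of the tested genes of the set, and Lmx1a, under the filter, differed by a larger fold of the means (10.8 against 8.52). Of the 9 genes, 8 passed the filter on low values and 0 of them passed the adjusted limma threshold of 0.05, where 0.0221% of all tested genes did. At an unadjusted p under 0.05 there were 3 lower (Tph1, Ddc and Fev), against 1.63% of all tested genes, and 0 higher, against 1.8%. The same 3 genes were lower without overlap between the groups, against 3.71% of tested genes, and 0 were higher without overlap, against 4.05%. The other 5 tested genes overlapped. A limma-voom fit of reads rebuilt from the deposited coverage also called 0 of the 8 (0% of 13468 genes), and the authors' deposited table called 1 of the 9, Tph1, where 0.14% of its 18605 genes were called. The libraries carry the numbers 1 to 3 in both groups. A fit with that number as a block called 1 gene, Tph1, as lower, where it called 0.162% of all genes and 0.0956% as lower. With numbers 1 and 2 swapped it called 0 of the 8 (0.147% of all genes). Blocks on only 2 pairs leave 1 residual degree of freedom among the libraries. On pairs 2 and 3 the fit called 3 as lower. Of all 13596 genes it called 2.35% in either direction, 184 of them as lower. On pairs 1 and 2 it called 1 as lower and 1 as higher, and 4.65% of all genes (264 lower, 368 higher). On pairs 1 and 3 it called 0 members and 0 of all genes (0%).

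**Figure D1:**
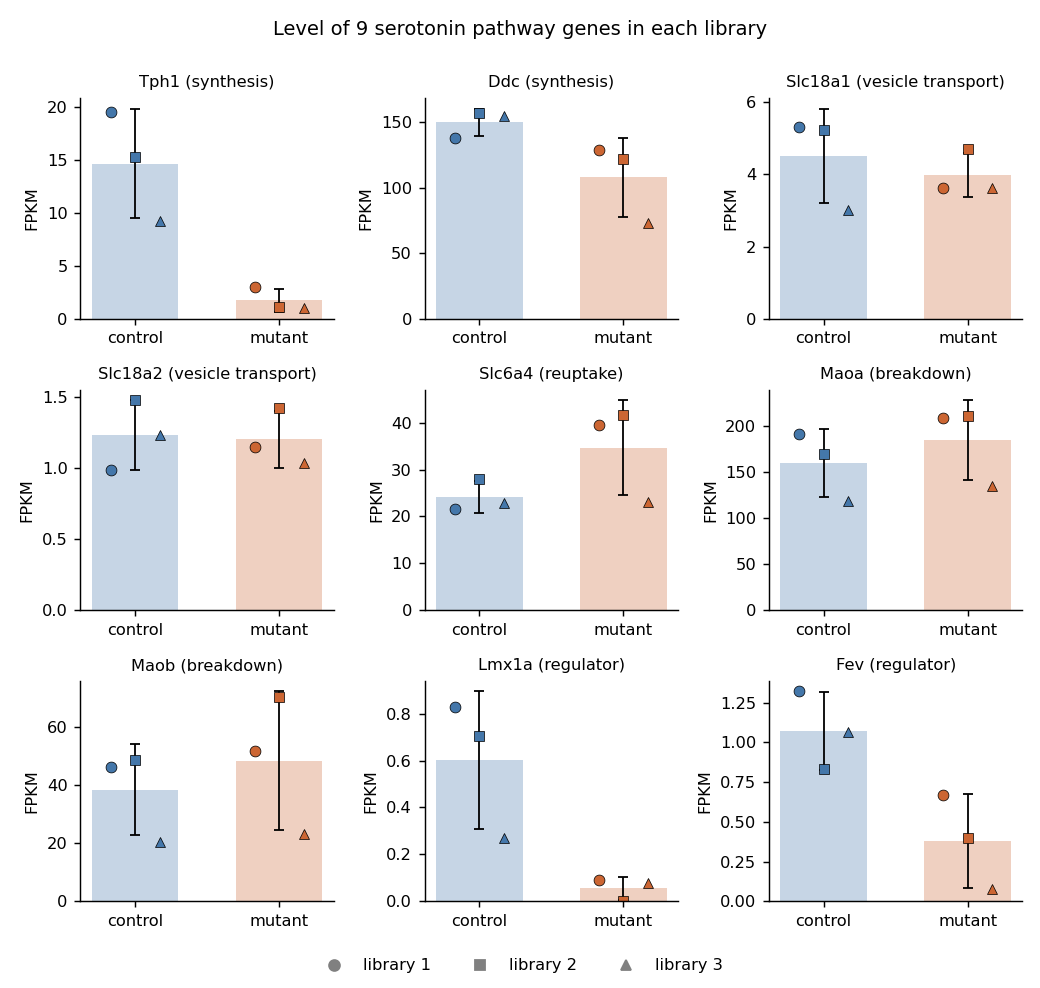
FPKM of the 9 serotonin genes in each library, with bars for group means, error bars for the SD (n = 3) and symbols for libraries 1 to 3; each panel has its own axis from 0. The mutants of Tph1 (1.04 to 3.00 FPKM) sit below every control (9.19 to 19.5 FPKM), Ddc, Fev and Lmx1a also show no overlap, and the other 5 genes overlap.

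Tph1 (chr7:53902501-53927907, mm9, the build of all positions of genes and isoforms below) measured 19.5, 15.3 and 9.19 FPKM across controls 1 to 3, against 3.00, 1.13 and 1.04 FPKM across mutants 1 to 3. Every mutant lay below every control, and mutant 1 was the highest mutant. These levels rested on 300 to 778 rebuilt reads per control and 33 to 97 per mutant. The group means of 14.7 ± 5.18 and 1.72 ± 1.10 FPKM differed 8.52-fold. The log2 change was -2.82 ± 0.40 (95% interval -3.79 to -1.85) and the adjusted p 0.305. The smallest p that an exact permutation of 3 against 3 allows is 0.1, and Tph1 reached it (two-sided).

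Within same-numbered pairs the log2 differences of Tph1 were -2.52, -3.27 and -2.66, and the standard error was 0.17 with the block against 0.40 without it. The blocked limma fit gave an adjusted p of 0.000129, and with numbers 1 and 2 swapped between the groups it gave 0.172. Over 20 alternative fits the adjusted p ran from 0.000129 to 1.00. In the authors' deposited table Tph1 had mean normalized counts of 519 in controls and 60.7 in mutants, a log2 fold of -3.10 and an adjusted p of 0.00194. With mutant 1 as the only mutant, which leaves out both libraries that expressed Xist, the log2 change was -2.05. In bulk tissue, fewer Tph1-expressing cells and less Tph1 RNA per cell cannot be told apart.

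All Tph1 reads were assigned to a single isoform. NM_001136084, which starts at 53922718, carried the whole level in every library. NM_009414, which starts upstream at 53927907, had 0 reads in all 6 libraries, and a count of 0 allows up to 0.0787 FPKM at 3 reads. Tph2, the tryptophan hydroxylase of neurons, was at 0 FPKM in all controls and at most 0.0348 FPKM in the mutants.

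Ddc (chr11:11714104-11798147) was more abundant per length than Tph1 in every library. It measured 138, 158 and 155 FPKM across controls 1 to 3, against 129, 122 and 73.1 FPKM across mutants 1 to 3. The groups did not overlap, but mutants 1 and 2 lay close to the lowest control and mutant 3 was far below the rest. Its log2 difference was -0.51 ± 0.22 (adjusted p = 0.999, exact permutation p = 0.1), and the pairs differed by -0.10, -0.37 and -1.07. Without mutant 3 the change was -0.26, and with mutant 1 as the only mutant it was -0.22, so the size of the difference rested on mutant 3. That library expressed Xist and had high Reg3b. Mutant 2, which also expressed Xist, was at 122 FPKM, and control 3, which also had high Reg3b, was at 155 FPKM. The part of either trait was not tested.

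Of the 2 Ddc isoforms, which differ in their start, only the more abundant one followed this pattern. The gene is known to be transcribed from separate neuronal and non-neuronal starts. NM_001190448, with the upstream start at 11798147, made up nearly all of the level, with 136, 157 and 154 FPKM across controls 1 to 3, against 129, 122 and 73.1 FPKM across mutants 1 to 3. NM_016672, with the downstream start at 11790411, was at 2.13, 0.775 and 1.02 FPKM in controls 1 to 3, from 98, 29 and 38 rebuilt reads, or 0.492% to 1.54% of Ddc. In each mutant it had 0 reads, and the upper bounds of the deposited intervals were 0.0539, 0.0481 and 0.0547 FPKM, below the lowest control bound of 0.375 FPKM. Against a floor of 3 reads per mutant library, the control mean was 16.7-fold higher. That floor covers counting error only and not the assignment of reads to isoforms, so this fold is no lower bound.

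The limma fit on isoforms gave NM_016672 a log2 change of -1.78 ± 0.31 (adjusted p = 0.548), which depends on the added 0.5 and is no bound. With the block the adjusted p was 0.644, and over 9 alternative fits it ran from 0.290 to 1.00. Among all 16213 isoforms, 3.79% had an unadjusted p under 0.05 and 0.00617% passed the adjusted threshold. The isoform passed the filter only through the controls, so it had to be lower in the mutants once it was tested. The isoforms differ at their 5′ ends, so the split that Cufflinks made rests on short stretches. GENCODE annotates first exons of at most 64 bases at the downstream start and of 37 bases for the model nearest the upstream start. That model starts at 11798047, inside NM_001190448, so its 37 bases are not the length of the first exon of that isoform.

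**Figure D2:**
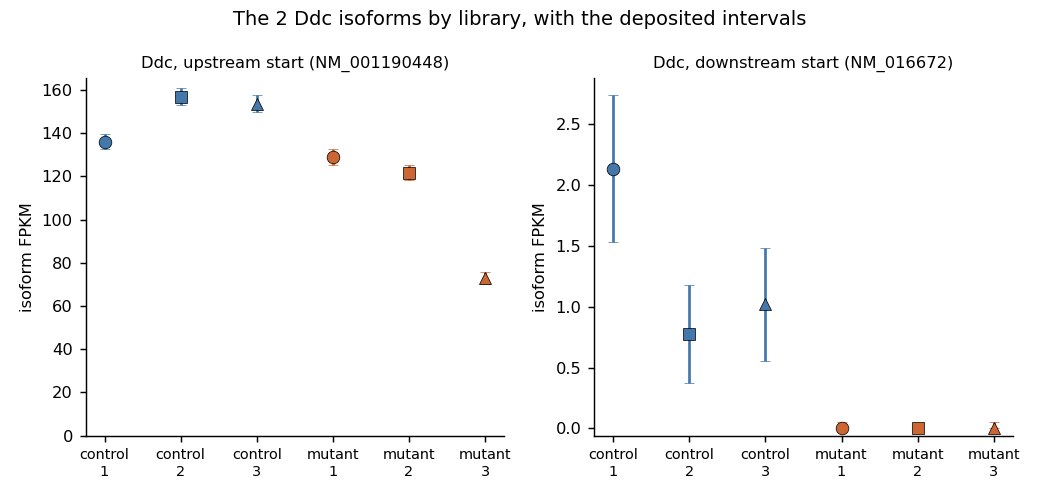
FPKM of the upstream-start (left) and downstream-start (right) isoforms of Ddc in each library, with the intervals deposited by the authors as error bars. The downstream-start isoform sits at 0.775 to 2.13 FPKM in the controls and near 0 in all 3 mutants, while the upstream-start isoform is lowest in mutant 3 at 73.1 FPKM.

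RNA levels of the vesicle transporters overlapped between the groups, unlike those of Tph1. Slc18a1 (chr8:71561607-71613121) measured 5.32, 5.22 and 3.01 FPKM across controls 1 to 3, against 3.64, 4.69 and 3.61 FPKM across mutants 1 to 3. The lowest library was a control, and the log2 change was -0.14 ± 0.22 with a 95% interval of -0.65 to 0.38 (adjusted p = 0.999, exact permutation p = 0.8). That interval spans 0.637 to 1.30 times the control level. The gene model overlaps that of Atp6v1b2 on the opposite strand at its 5′ end, although the first exons annotated by GENCODE lie next to each other without overlap.

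Slc18a2 (chr19:59335368-59370502), a transporter also found in neurons, mast cells and platelets, was lower than Slc18a1 in every library. It measured 0.986, 1.48 and 1.23 FPKM across controls 1 to 3, against 1.15, 1.43 and 1.04 FPKM across mutants 1 to 3, from 78 to 122 reads. The groups overlapped, with a log2 change of -0.02 ± 0.17 and a 95% interval of -0.42 to 0.37 (adjusted p = 0.999, exact permutation p = 0.9). The sign of this small difference changed with several settings.

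For reuptake, Slc6a4 (chr11:76812099-76845845) measured 21.7, 28.0 and 22.9 FPKM across controls 1 to 3, against 39.5, 41.6 and 23.0 FPKM across mutants 1 to 3. Mutants 1 and 2 lay above all controls, whereas mutant 3 lay among them. Its log2 difference was 0.47 ± 0.23, with a 95% interval of -0.08 to 1.03 (adjusted p = 0.999, exact permutation p = 0.2). Pairs 1, 2 and 3 differed by 0.85, 0.56 and 0.01. Without both libraries numbered 3, the change was 0.71 with an adjusted p of 0.0401, where 1.47% of all tested genes passed, and over 20 alternative fits the adjusted p ran from 0.0401 to 1.00. A fit without mutant 3 alone gave 0.74 and an adjusted p of 0.0995.

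Of the breakdown genes, Maoa had the highest mean level of the whole set. Maoa (chrX:16196824-16264938) measured 191, 170 and 118 FPKM across controls 1 to 3, against 208, 210 and 134 FPKM across mutants 1 to 3. Maob (chrX:16286407-16394492), its neighbour on the X chromosome, measured 46.3, 48.9 and 20.5 FPKM across controls 1 to 3, against 52.0, 70.5 and 23.1 FPKM across mutants 1 to 3. Both genes were lowest in the library numbered 3 of each group, the libraries with high Reg3b. The log2 changes were 0.21 ± 0.24 for Maoa and 0.29 ± 0.53 for Maob, and neither passed (adjusted p = 0.999 and exact permutation p = 0.5 for both).

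Within pairs the differences of Maoa were 0.13, 0.31 and 0.18 and those of Maob 0.17, 0.52 and 0.17, all above 0. With the block neither gene passed, at adjusted p of 0.739 and 0.611. Both genes are X-linked. Pairs 2 and 3 set a library with Xist against one without, and in pair 1 neither library expressed Xist. For both genes pair 2 differed by more than pair 1, and pair 3 by about as much as pair 1. With mutant 1 as the only mutant the changes were 0.41 for Maoa and 0.52 for Maob. That fit kept control 3, the lowest control for both genes, and left out mutant 3, so it is not a like comparison. The part of sex in these levels was not tested.

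**Figure D3:**
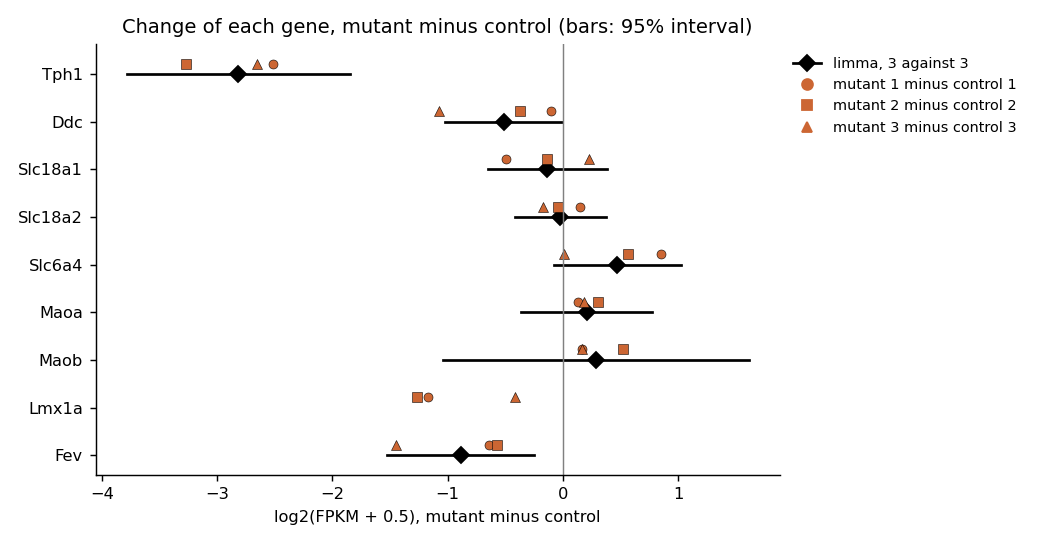
Change of each gene in log2(FPKM + 0.5), mutant minus control: diamonds with bars are limma estimates with 95% intervals, and coloured symbols are the differences within the 3 same-numbered pairs. Lmx1a was under the filter and has pairs only; the Tph1 interval (-3.79 to -1.85) lies apart from those of the other 7 tested genes.

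Both regulators were lower in the mutants, at low levels. Lmx1a (chr1:169619689-169778864) was at 0.828, 0.704 and 0.268 FPKM in controls 1 to 3, from 68, 48 and 18 reads, and at 0.0901, 0 and 0.0763 FPKM in mutants 1 to 3, from 6, 0 and 5 reads. The count of 0 in mutant 2 allows up to 0.0403 FPKM at 3 reads. No mutant reached the lowest control, and the means differed 10.8-fold. The gene was under the filter and outside the main fit. Fitted without a filter it had a log2 change of -0.95 ± 0.21 (adjusted p = 0.823, exact permutation p = 0.1). The authors' deposited table gave mean normalized counts of 42.3 and 3.84, a log2 fold of -3.46 and an adjusted p of 0.117.

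Fev (chr1:74928083-74931982) measured 1.32, 0.832 and 1.07 FPKM across controls 1 to 3, against 0.667, 0.397 and 0.0752 FPKM across mutants 1 to 3. Mutant 3 had only 2 reads, and the others had 12 to 44, and the FPKM minimum was reached in all controls and in mutant 1. Its log2 difference was -0.89 ± 0.27 (adjusted p = 0.999, exact permutation p = 0.1), and the means differed 2.83-fold. On rebuilt reads limma-voom gave -1.85. Pairs differed by -0.64, -0.57 and -1.44, and the block gave an adjusted p of 0.318. With mutant 1 as the only mutant the change was -0.42.

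By level per length, the controls ran from Maoa and Ddc through Maob, Slc6a4, Tph1, Slc18a1, Slc18a2 and Fev to Lmx1a. In that order Maoa and Ddc overlapped over the controls, as did Maob and Slc6a4, and Slc18a2 and Fev, and the other neighbours did not. In the mutants the order of the means was the same except that Tph1 went from rank 5 to rank 6, below Slc18a1. Of the 8 tested genes, 6 differed with the same sign in all 3 pairs, all but Slc18a1 and Slc18a2, against 28.3% of all tested genes. For Slc6a4 the difference in pair 3 was only 0.0064.

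Ratios within a library remove factors that scale all genes of that library alike. The log2 ratio of Tph1 to Slc18a1 was 1.78, 1.46 and 1.46 in controls 1 to 3 and -0.24, -1.67 and -1.42 in mutants 1 to 3. Tph1 was thus above the transporter in every control and below it in every mutant. The ratio of Tph1 to Ddc changed by -2.30 and that of Tph1 to Slc18a2 by -2.79.

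Tph1 also lay lower relative to chromogranins A and B, acidic proteins of endocrine secretory granules. The log2 ratio of Tph1 to Chga was -1.40, -1.50 and -1.33 in controls and -1.88, -2.68 and -2.29 in mutants, a change of -0.88. The ratio to Chgb changed by -1.13. The ratio of Fev to Tph1 changed by 1.93 in the other direction, on a scale where the added 0.5 understates the change of Fev. These 6 ratios did not overlap between groups and each had an exact two-sided permutation p of 0.1, or 0.133 adjusted over the 8 ratios computed. The ratio of Maoa to Maob changed by -0.08 (exact permutation p = 0.8) and that of Slc18a1 to Slc18a2 by -0.11 (exact permutation p = 0.7), both with overlap.

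**Figure D4:**
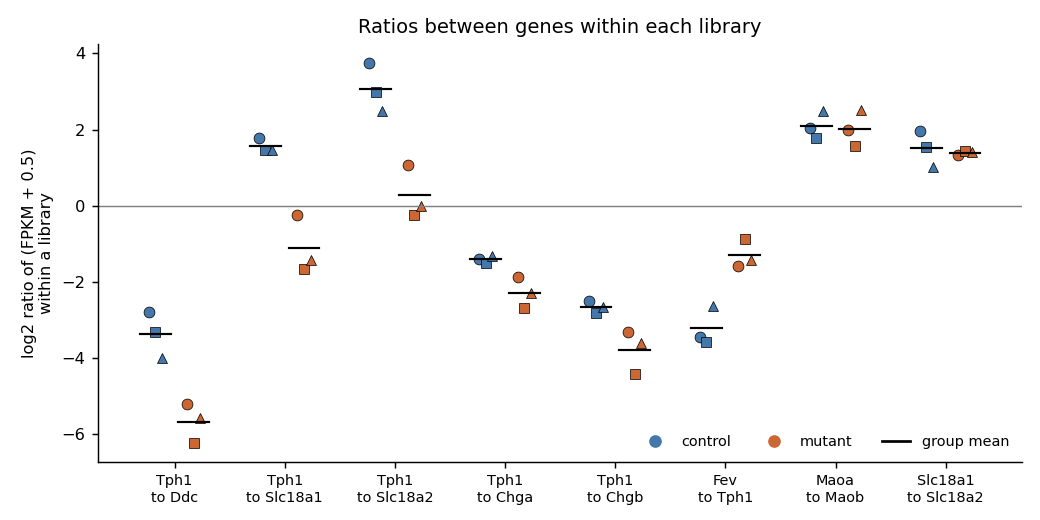
Log2 ratio of (FPKM + 0.5) between the named genes within each library, with horizontal bars for group means and symbols for libraries 1 (circle), 2 (square) and 3 (triangle). The 5 ratios with Tph1 as numerator are lower in every mutant than in every control, whereas Maoa to Maob and Slc18a1 to Slc18a2 overlap.

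Genes around the pathway showed few differences, and limma called 0 members in each of the lists of this and the next paragraph. Across all 13596 tested genes the median log2 change was -0.02. Among transporters that supply tryptophan, 6 were tested with a median of 0.10. Among the abundant ones was Slc6a19, a neutral amino acid transporter, at 203 ± 67.0 and 204 ± 56.8 FPKM. Slc7a5, a carrier of large neutral amino acids, was at 6.53 to 6.68 FPKM across the controls, against 4.37 to 5.42 FPKM across the mutants, without overlap (log2 change -0.37 ± 0.12, adjusted p = 0.999). The 7 genes that make or recycle tetrahydrobiopterin, the cofactor of Tph1, had a median of 0.05, with Qdpr at 70.9 ± 12.5 and 72.0 ± 15.6 FPKM and Spr at 66.9 ± 1.13 and 67.5 ± 3.53 FPKM. One of them, Gchfr, which feeds back on the first enzyme of that route, was higher without overlap, with 11.5, 9.64 and 20.5 FPKM across controls 1 to 3, against 23.9, 28.7 and 31.0 FPKM across mutants 1 to 3 (log2 change 1.05 ± 0.27, adjusted p = 0.999, with the block 0.206).

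The competing kynurenine route had 4 tested genes with a median of 0.07, led by Ido1 at 26.4 ± 9.35 and 19.4 ± 3.95 FPKM and Afmid at 4.50 ± 0.94 and 4.74 ± 0.35 FPKM. Of other enzymes of aromatic amino acids and amines, 2 were tested, and Hdc, histidine decarboxylase, had a log2 change of 0.14. Of other amine transporters 2 were tested with a median of 0.14, among them Slc47a1 at 14.1 ± 8.00 and 16.8 ± 10.9 FPKM. The 12 tested enzymes that act after oxidation or by conjugation had a median of 0.07, led by Akr1a1 at 637 ± 82.4 and 701 ± 22.4 FPKM and Aldh1a1 at 190 ± 92.5 and 192 ± 121 FPKM. Only 2 of 14 serotonin receptors reached the filter. These were Htr3a, a ligand-gated channel, at 1.82 ± 0.49 and 1.11 ± 0.47 FPKM, and Htr2b, a G-protein-coupled receptor, at 0.738 ± 0.345 and 0.435 ± 0.380 FPKM, and 7 receptors were below 0.05 FPKM in every library.

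The other transcription factors of endocrine and serotonergic cells, 12 of 16 tested and 0 called, had a median log2 change of -0.26. Gata4 was at 68.7 ± 2.37 and 62.4 ± 3.71 FPKM and Foxa1 at 5.05 ± 1.16 and 3.55 ± 0.75 FPKM. Neurog3, which starts endocrine differentiation, was at 2.52 to 2.90 FPKM across the controls, against 1.77 to 2.24 FPKM across the mutants, without overlap (log2 change -0.36 ± 0.14, adjusted p = 0.999). Of the 12 tested, 10 had a log2 change below 0, while Gata3 and Isl1 lay the opposite way. Gata3 was higher in every mutant than in every control, at 0.315 ± 0.098 and 0.551 ± 0.078 FPKM (log2 change 0.37 ± 0.16, adjusted p = 0.999). Gata3 reached the FPKM minimum only in the mutants and so had to be higher once tested. Isl1, a LIM homeodomain factor, was at 0.784 ± 0.230 and 1.56 ± 0.51 FPKM with overlap (log2 change 0.66 ± 0.23, adjusted p = 0.999). Lmx1b, a relative of Lmx1a that serves in serotonergic neurons, was at 0 FPKM in 5 libraries and 0.0416 FPKM in mutant 2.

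Several other products and sensors of enterochromaffin cells lay lower in the mutants. Of the 8 tested, Ucn3 and Trpa1 reached the FPKM minimum only in controls and so had to be lower once tested. Of the other 6, 1 fell past the threshold (0.0221% of all tested genes), 3 were called with the block (0.162%) and 5 were lower without overlap (3.71%), with a median log2 change of -1.34. Earlier results of these data had already shown that several of them lay lower, so the count is no independent support. Tac1, the substance P precursor, fell from 11.1, 10.7 and 11.3 FPKM across controls 1 to 3 to 1.77, 1.07 and 2.55 FPKM across mutants 1 to 3 (log2 change -2.38 ± 0.23, adjusted p = 0.0491). That call held in 11 of 20 alternative fits, with adjusted p from 0.000221 to 0.317, and leaving out control 1 (0.310), control 2 (0.317), control 3 (0.0964) or mutant 1 (0.0968) ended it. Ucn3, a urocortin peptide, was at 1.66 ± 0.33 and 0.157 ± 0.089 FPKM, Trpa1, an irritant-sensing channel, at 2.01 ± 0.85 and 0.306 ± 0.069 FPKM, and Amigo2, an adhesion protein, at 2.64 ± 0.39 and 1.09 ± 0.28 FPKM. Reg4 overlapped, at 80.8 to 181 FPKM across the controls, against 15.0 to 222 FPKM across the mutants.

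Across the 6 libraries, the genes whose log2 levels followed Tph1 most closely were Afp (Pearson r = 0.990), Gip (0.989), Ucn3 (0.988), Spata5 (0.987) and Chga (0.983). The most opposite ones were Cldn25 (-0.997), Pdha1 (-0.996) and Nr6a1 (-0.984). These values describe 6 libraries that fall into the 2 groups, so any gene that differs between groups scores high. Gip encodes an incretin hormone of other endocrine cells. Fev stood at r = 0.89, rank 65 of 12285 genes, and Ddc at 0.75, while Slc18a1 stood at 0.37, Slc18a2 at -0.01, Maob at -0.03, Maoa at -0.08 and Slc6a4 at -0.51. With the group means removed the closest genes were Csad, Aldh1a3, Acpl2, Slc7a11 and Ipcef1 and the most opposite Cd59a, Kin and Nkiras2. Among the serotonin genes Maoa was then closest at 0.74, followed by Fev at 0.66.

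The 9 genes are not limited to enterochromaffin cells, and the summed FPKM of marker lists for other cells also differed between libraries. The 12 mast cell markers summed to 10.5 to 15.8 FPKM across the controls, against 24.2 to 45.4 FPKM across the mutants, without overlap. Mcpt1 and Mcpt2, proteases of mucosal mast cells, were at 5.01 ± 1.29 and 16.5 ± 7.23 FPKM and at 2.65 ± 0.78 and 6.33 ± 3.36 FPKM. Mouse mast cells can express Tph1 and Slc18a2, and their part in the levels of these genes was not tested. The tuft cell sum was 30.2 to 39.7 FPKM across the controls, 134 FPKM for mutant 1, 151 FPKM for mutant 2 and 35.9 FPKM for mutant 3, so that mutants 1 and 2 stood highest here as they did for Slc6a4. In that list Alox5ap was among the most abundant, and Ltc4s was higher without overlap, at 8.91 ± 2.33 and 16.4 ± 4.86 FPKM. The enterocyte sum was lowest in the libraries numbered 3, at 17928 FPKM in control 3 and 21992 FPKM in mutant 3 against 35888 to 46229 FPKM in the others, as were Maoa and Maob, with Apoa1 and Apoa4 leading the list.

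Markers of nerve, blood and pancreas are given beside Ddc and Tph1. The enteric neuron sum was 39.3 to 49.1 FPKM across the controls, against 30.3 to 34.2 FPKM across the mutants, with Vip, a neuropeptide, at 21.7 ± 4.03 and 11.6 ± 0.65 FPKM (adjusted p = 0.368, with the block 0.0440). The sum of sympathetic markers was 9.78 to 17.8 and 3.46 to 7.50 FPKM, nearly all of it Npy, while the defining Slc6a2 was at most 0.0157 FPKM. The platelet sum overlapped, at 13.7 to 19.2 and 10.7 to 16.9 FPKM, with Gp1bb and Pf4 the most abundant. Itga2b, an integrin chain of that list, was higher without overlap (4.05% of all tested genes), at 0.477 ± 0.231 and 0.813 ± 0.040 FPKM. Of the 4 tested, 3 had a log2 change below 0. The exocrine pancreas sum was 11987 to 19471 FPKM across the controls, against 2571 to 11167 FPKM across the mutants. All 12 tested members of that list had lower means and 6 were lower without overlap (3.71% of all tested genes), led by Ctrb1 at 4307 ± 498 and 1614 ± 848 FPKM.

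The sum of beta cell markers, which mark islet cells able to express Tph1 and Ddc, overlapped at 240 to 293 and 207 to 299 FPKM. Of the 4 tested, 1 was lower without overlap (3.71% of all tested genes). The sum was nearly all Slc2a2 and Pdx1, which duodenal epithelium also expresses, and G6pc2, Nkx6-1 and Slc30a8 were below 0.05 FPKM in every library. The Brunner gland and stomach list summed to 2708 to 8511 FPKM across the controls, against 142 to 4807 FPKM across the mutants, led by Tff2 and Gkn3, and Pgc, a pepsinogen, was at 20.2 ± 16.5 and 2.11 ± 1.68 FPKM. The part of these cell and tissue shares in the levels of the serotonin genes was not tested.

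**Figure D5:**
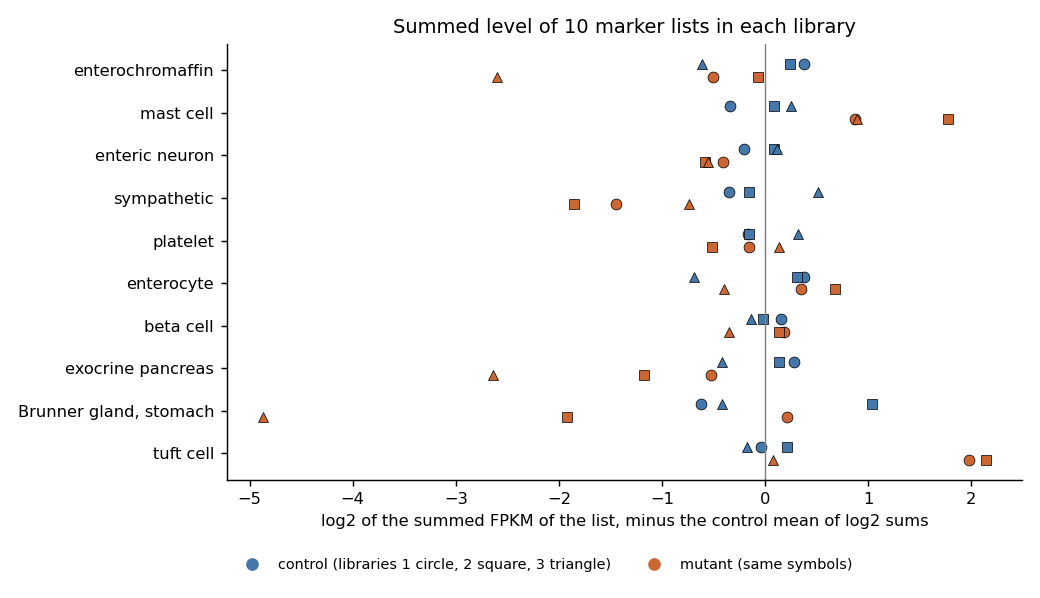
Summed FPKM of 10 marker lists in each library, as log2 relative to the control mean of the log2 sums, with controls above and mutants below each line and symbols for libraries 1 (circle), 2 (square) and 3 (triangle). Mast cell sums are higher in all mutants, enteric neuron and exocrine pancreas sums are lower in all mutants, and tuft cell sums are high in mutants 1 and 2 only.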

How the data were processed

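RNA of 3 control and 3 mutant duodenum samples, grouped by their titles, had been sequenced on a HiSeq2000 from TruSeq libraries of total RNA with a RIN above 8, per the labels. The submitters' processing notes list mm9 and the tools TopHat, Cufflinks, DESeq and CASAVA 1.8.2, with no role or options; strand use and further versions are not given in the sources used here. The authors deposited FPKM with intervals per gene and per isoform, and a coverage signal per isoform, per the file headers. A further deposited table by the authors compares the groups: per the file headers it holds the mean normalized count of each group (a signal), the fold between them, the log2 of that fold, and raw and adjusted p-values.

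Computed here were log2(FPKM + 0.5), for the 13596 genes and 16213 isoforms that reached 0.5 FPKM in 3 or more libraries, and limma 3.58.1 fits (trend and robust prior, R 4.3.3, statmod 1.5.0). Tests were two-sided, adjusted by Benjamini-Hochberg and called at 0.05. Reads were rebuilt as coverage times effective length over a fitted read length of 101 bases: 93.7% of 17154 low values lay within 0.1 of a whole read. Depth was 21.0 to 26.3 M fragments per library, so the lowest levels rest on few reads, and floors of 3 reads cover counting error only. Exact permutation tests, motif counts and summaries used Python 3.11.15 with pandas 2.3.3 and numpy 2.4.6, and plots matplotlib 3.10.9. In simulated data with 200 changed features, limma found 63% of genes changed by 1 in log2 and 89% of those changed by 2. Of its calls, 6.17% were false. For isoforms these shares were 53%, 79% and 3.65%. On the real libraries the main fit called 3 genes and did not call Tph1, at a log2 change of -2.82. Whether the shares from simulation hold for libraries that deviate together, as same-numbered ones did here, was not tested.

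The genes, lists and tests were chosen with earlier results of these data known. Named beside the 9 genes were, of each list, members past the threshold (up to 4) or else the 2 of highest mean, members with an unadjusted p under 0.05 without overlap (up to 4), and the genes most and least like Tph1. Xist, Ddx3y, Reg3b, Gkn2, Reg4, Tph2, Lmx1b, Gata3, Isl1, Slc6a2 and the beta cell markers below 0.05 FPKM were named after their values were seen. List members Asmt, Aoc1, Piezo2, Gpr112 and Adgrg4 matched no gene model, and Hdc and Gata2 stand in 2 lists. Some genes that this rule selects are not reported here.

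Same-numbered libraries deviated together, with correlations of 0.26, 0.25 and 0.58 over tested genes, so the numbers were taken as pairs, although the labels do not say what they mark. Control 1 correlated at 0.30 with mutant 2, so the match of numbers 1 and 2 is not settled and a swapped block was also fitted. Alternatives were other pseudocounts (0.1 and 1), no filter or a minimum of 1 FPKM, TPM, upper quartile and quantile scaling, a prior without trend or robustness, weights for library quality, limma-voom, the block, and leaving out libraries. Fits without the 2 Xist-expressing mutants and the isoform alternatives with other pseudocounts or without 1 library were added after seeing the data.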

Additional observations from a re-analysis of the deposited data

How the results depend on the processing

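With 3 libraries per group, calls over all genes were few: 3 in the main fit, against 22 with the replicate block, 20 with its numbers 1 and 2 swapped, 19 with library quality weights, 68 without mutant 3, 8 without mutant 1, 20 without mutants 2 and 3, 200 without both libraries numbered 3, and 1 with no filter or upper quartile scaling. Blocks on 2 pairs called 319 without replicate 1, 0 without replicate 2 and 632 without replicate 3; they leave 1 residual degree of freedom, so their p-values are not given. Of the serotonin genes, 0 were called higher or lower in the main fit and on leaving out each library in turn (range 0 to 0). With the replicate block 1 was lower (Tph1, adjusted p = 0.000129). The block without replicate 1 gave 3 lower (Tph1, Ddc and Fev), and that without replicate 3 gave 1 lower (Tph1) and 1 higher (Slc6a4). Without both libraries numbered 3, 1 was higher (Slc6a4). Leaving out 1 library moved the Tph1 change between -3.20 and -2.59.

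Changes of sign occurred in genes and ratios near 0. Slc18a1 was at 0.043 with the block without replicate 1. Slc18a2 was at 0.030 with quantile normalization, 0.016 with quality weights, 0.055 without both libraries numbered 3, blocked or not, and from -0.13 to 0.080 on leaving out each library. On leaving out each library Maob ranged from -0.11 to 0.74, the ratio of Maoa to Maob from -0.32 to 0.15 and that of Slc18a1 to Slc18a2 from -0.36 to 0.12. Lmx1a was at -2.12 with a pseudocount of 0.1. Downstream-start Ddc was at -3.70 and -1.16 with pseudocounts of 0.1 and 1.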
